A study of Mus musculus with 8 samples.

Results

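The genes described here encode proteins that neutrophils store in granules and cytosol. The set holds 10 of the 22180 genes measured by a feature of a single symbol. They were taken by name, 4 as early granule genes (Mpo, Elane, Prtn3 and Ctsg) and 6 as later genes (Ltf, Camp, Ngp, S100a8, S100a9 and Retnlg), and each had 1 feature on the array. The names were chosen by the knockout and control levels that earlier results on these same arrays had shown, so the differences below are a description and support nothing on their own. Levels were measured in whole cochleae, bony capsule included, of mice at postnatal day 16, on 8 Affymetrix Mouse Gene 2.0 ST arrays. The 4 knockout mice are labelled knockouts of miR-183/96, which are microRNAs transcribed as a cluster. The 4 other mice are called controls in the sample labels and wild type in the series design. Each array is 1 animal, with the RNA of both ears pooled. The labels do not state how the deletion was made, in which cells it acts, or the strain and sex of the animals.

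Neutrophils mature in bone marrow through a fixed series of stages, and each stage fills a different kind of granule. Promyelocytes make the azurophil granules with myeloperoxidase and serine proteases. Myelocytes and metamyelocytes then make the specific granules with lactoferrin and cathelicidin, and band and segmented cells carry the calprotectin subunits and other late products. Transcription of the early genes falls as a cell moves on, so within this lineage the early and later messages are weighted to different stages. In bulk tissue, fewer cells of a type and less RNA per cell cannot be told apart.

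The promoters of the 4 early genes are shown because they hold a short sequence in common. AGGAAGT, a core bound by ETS factors such as PU.1, was searched on both strands of the 250 bases before each transcript start in the RefSeq promoter table (build GRCm38.p6), where all 10 genes had an entry. It was present in 4 of 4 early promoters and in 1 of 6 later promoters, that of S100a8, against 7.69% of 32851 promoters of the table. The matches are in capitals below, each sequence written 5′ to 3′ on the strand of its gene, and the S100a8 match lies on the opposite strand.
Mpo promoter, chr11:87793534-87793783, + strand: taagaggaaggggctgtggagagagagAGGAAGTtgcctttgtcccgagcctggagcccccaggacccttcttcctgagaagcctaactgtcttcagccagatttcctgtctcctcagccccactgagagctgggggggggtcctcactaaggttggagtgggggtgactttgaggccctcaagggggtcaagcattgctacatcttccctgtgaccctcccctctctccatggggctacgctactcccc
Elane promoter, chr10:79886062-79886311, + strand: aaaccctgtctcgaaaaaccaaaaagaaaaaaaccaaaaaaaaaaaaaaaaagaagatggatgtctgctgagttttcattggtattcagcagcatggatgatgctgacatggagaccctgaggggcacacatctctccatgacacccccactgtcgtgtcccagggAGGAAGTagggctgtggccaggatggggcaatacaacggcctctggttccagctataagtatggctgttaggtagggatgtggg
Prtn3 promoter, chr10:79879417-79879666, + strand: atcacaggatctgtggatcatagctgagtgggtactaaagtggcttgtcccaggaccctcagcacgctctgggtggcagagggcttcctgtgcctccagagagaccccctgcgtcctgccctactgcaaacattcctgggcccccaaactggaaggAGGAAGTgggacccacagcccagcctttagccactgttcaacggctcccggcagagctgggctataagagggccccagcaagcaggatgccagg
Ctsg promoter, chr14:56102575-56102824, - strand: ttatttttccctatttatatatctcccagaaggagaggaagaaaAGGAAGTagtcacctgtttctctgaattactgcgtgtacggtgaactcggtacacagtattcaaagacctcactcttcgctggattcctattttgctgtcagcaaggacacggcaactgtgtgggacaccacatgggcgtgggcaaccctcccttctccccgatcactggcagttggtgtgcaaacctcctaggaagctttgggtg
S100a8 promoter, chr3:90668821-90669070, + strand: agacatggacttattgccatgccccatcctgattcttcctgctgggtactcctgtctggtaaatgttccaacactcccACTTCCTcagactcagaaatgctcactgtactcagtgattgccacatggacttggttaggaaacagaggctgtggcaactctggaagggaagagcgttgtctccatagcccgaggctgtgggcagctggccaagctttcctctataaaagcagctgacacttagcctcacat

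The early matches began 223 bases before the start in Mpo, 84 in Elane, 94 in Prtn3 and 206 in Ctsg. A second pattern, AACGG, the core of Myb sites, was found in Elane at 50 and in Prtn3 at 55 bases before the start and in 0 of 6 later promoters, against 14.5% of all promoters. TTNNGNAA, a loose pattern for C/EBP factors, was found in 0 of 4 early and in 5 of 6 later promoters (all but Camp), against 36.8% of all promoters. Within these 10 promoters no match overlapped another. The 3 patterns were picked after the sequences had been read. A match shows letters and no binding, and no match says only that these letters are not in this window. Elane and Prtn3 both lie on chromosome 10, Ltf, Camp and Ngp on chromosome 9, and S100a8 and S100a9 on chromosome 3.

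The targeted locus was the check of the labels. The Mir96 feature read 4.01, 4.26, 4.26 and 4.31 in knockout replicates 1 to 4 and 5.71, 5.26, 6.23 and 5.57 in control replicates 1 to 4, and the groups did not overlap. The Mir183 feature, at a mean of 2.41, was among the dimmest of the array and checked nothing. The arrays differed in the spread of their log2 values over tested features (the signal range, as an SD): 1.37 to 1.44 in knockout and 1.41 to 1.56 in control arrays. Features of high level were mostly lower in knockout arrays. In the highest decile of features by level, 12.3% had a positive difference and the median log2 difference was -0.21, while over all 23521 tested features 52.4% were positive and the median was 0.01. All 10 granule genes lay in that decile, from the 94.0th percentile (Elane) to the 99.9th (S100a8). Their differences are therefore given as deposited, beside this median, and after cyclic loess, which takes out differences that depend on level and brought the decile's median to -0.01. Differences are knockout minus control in log2 units, tested with limma across all features with Benjamini-Hochberg adjustment at a threshold of 0.05. Sample labels do not say whether the mice came from separate litters, so the 8 animals may not be independent. The p-values set each group difference against the spread within groups, with variances drawn toward those of features of like level.

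No granule gene passed the test. Of the 10 genes, 0 were called, where limma called 3 of 23521 features, or 0.0128%. At an unadjusted p under 0.05 there was 1, S100a9, where 14.3% of all features passed (7.04% higher and 7.25% lower). In none of the 10 genes were knockout and control values fully apart, which was so for 5.96% of all features. The 4 early genes all lay below 0 (median -0.25). Of the 6 later genes 4 lay above 0 (median 0.22). A p above the threshold does not show that levels were equal. The 95% intervals below are unadjusted and hold only for the values as deposited. With signal range as a covariate, some differences given below lay outside them.

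The early genes come from the azurophil granule. Mpo encodes myeloperoxidase, which makes hypochlorous acid. It read 8.33, 8.35, 8.13 and 7.69 in knockout replicates 1 to 4 and 8.49, 8.32, 7.85 and 8.77 in control replicates 1 to 4. The highest value was in control replicate 4 and the lowest in knockout replicate 4, and the groups overlapped. The means were 8.12 ± 0.30 and 8.36 ± 0.39 (SD, n = 4), a difference of -0.23 (95% interval -0.64 to 0.17; limma adjusted p = 0.548).

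Elane encodes neutrophil elastase. It read 7.20, 7.44, 7.23 and 7.09 in knockout and 7.64, 7.54, 7.02 and 7.84 in control replicates 1 to 4. 3 control animals lay above all knockout animals, and control replicate 3 lay below them. The difference was -0.27 (95% interval -0.61 to 0.06; limma adjusted p = 0.421). Prtn3 encodes proteinase 3, a close relative of elastase. It read 7.54, 7.19, 7.08 and 7.20 in knockout and 7.95, 7.76, 6.84 and 8.03 in control replicates 1 to 4. The same 3 control animals lay above all knockout animals and control replicate 3 again below them. With means of 7.25 ± 0.20 and 7.64 ± 0.55 (SD, n = 4), Prtn3 had the lowest difference of the 10 genes, -0.39 (95% interval -0.85 to 0.07; limma adjusted p = 0.407).

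Ctsg encodes cathepsin G, the third serine protease of the granule. It read 7.30, 7.52, 7.22 and 7.44 in knockout and 7.49, 7.39, 7.29 and 7.98 in control replicates 1 to 4. Here control replicate 4 stood above the other 7 arrays, which spanned 7.22 to 7.52. The difference was -0.17 (95% interval -0.47 to 0.14; limma adjusted p = 0.578).

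The size of the early differences depended on single animals of both groups. Without control replicate 4, the highest array for all 4 early genes, the differences were -0.10 for Mpo, -0.16 for Elane, -0.26 for Prtn3 and -0.02 for Ctsg. Without control replicate 3, the lowest for Elane and Prtn3, they were -0.40 for Mpo, -0.44 for Elane, -0.66 for Prtn3 and -0.25 for Ctsg. Without knockout replicate 4, the lowest array for Mpo, the difference of Mpo was -0.09. None was called in these cases (lowest limma adjusted p = 0.0694, for Prtn3 without control replicate 3). Control replicate 4 also had the widest signal range (1.56) and control replicate 3 the narrowest of the controls (1.41). After cyclic loess the differences were -0.02 for Mpo, -0.07 for Elane, -0.18 for Prtn3 and 0.05 for Ctsg, so that 1 of 4 was positive. With signal range as a covariate all 4 were positive (0.35, 0.21, 0.21 and 0.17). That covariate overlaps with genotype, and the part of signal range in these values was not tested. As deposited, Mpo, Elane and Ctsg differed from the decile's median of -0.21 by -0.03, -0.07 and 0.04, and Prtn3 by -0.18.

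**Figure D1:**
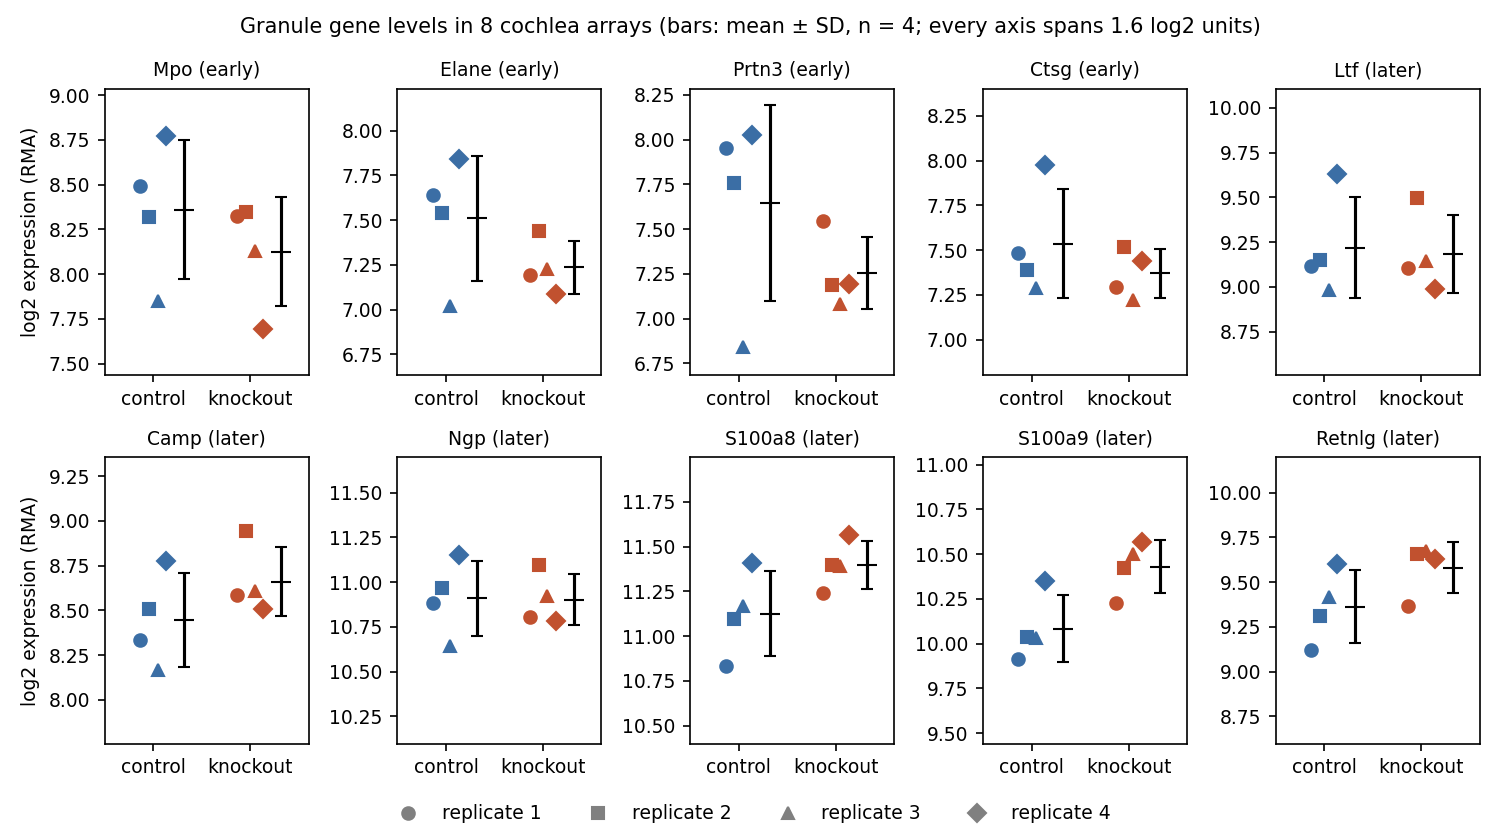
Log2 expression of the 10 granule genes in each cochlea array, controls in blue and knockouts in red, with 1 symbol shape per replicate number and the mean ± SD (n = 4) as a bar. Control replicate 4 is highest in all 4 early genes, and the groups overlap in every panel.

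The later genes fell into those of the specific granule and those of the cytosol or late stages. Ltf encodes lactoferrin, which binds iron. It read 9.10, 9.50, 9.15 and 8.99 in knockout and 9.12, 9.15, 8.98 and 9.63 in control replicates 1 to 4. Both groups held 1 high animal (knockout replicate 2 and control replicate 4) and 3 close to each other. The difference was -0.04 (95% interval -0.36 to 0.29; limma adjusted p = 0.920).

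Ngp encodes neutrophilic granule protein, which belongs to the cathelicidin and cystatin family. It read 10.81, 11.09, 10.92 and 10.78 in knockout and 10.88, 10.97, 10.64 and 11.15 in control replicates 1 to 4. The same 2 animals were highest and control replicate 3 was lowest. The difference was -0.01 (95% interval -0.28 to 0.27; limma adjusted p = 0.978). Camp encodes cathelicidin, the precursor of an antimicrobial peptide. It read 8.58, 8.95, 8.61 and 8.51 in knockout and 8.34, 8.51, 8.17 and 8.78 in control replicates 1 to 4. Every knockout animal lay above control replicates 1, 2 and 3. Knockout replicate 4 did so over control replicate 2 only in later digits (both 8.51). Control replicate 4 lay above all knockout animals but replicate 2. The difference was 0.21 (95% interval -0.09 to 0.52; limma adjusted p = 0.471).

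The late genes follow. S100a8 encodes a calcium-binding subunit of calprotectin. It read 11.24, 11.40, 11.39 and 11.57 in knockout and 10.83, 11.09, 11.17 and 11.41 in control replicates 1 to 4. Control replicate 4 lay within the knockout range and the other 3 controls below it, and the difference was 0.27 (95% interval -0.01 to 0.56; limma adjusted p = 0.365).

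S100a9 encodes the other subunit. It read 10.23, 10.42, 10.50 and 10.57 in knockout and 9.91, 10.03, 10.03 and 10.35 in control replicates 1 to 4. Again control replicate 4 alone lay within the knockout range. The means were 10.43 ± 0.15 and 10.08 ± 0.19 (SD, n = 4), a difference of 0.35 or 1.27-fold (95% interval 0.08 to 0.61; unadjusted p = 0.0136 and adjusted p = 0.301, limma). The unadjusted interval leaves out 0, and the adjusted p did not pass.

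Retnlg encodes resistin-like gamma, a secreted protein of mature mouse neutrophils. It read 9.37, 9.66, 9.67 and 9.63 in knockout and 9.12, 9.31, 9.42 and 9.60 in control replicates 1 to 4. In 3 of 4 knockout animals it lay above all controls, and in knockout replicate 1 it lay between control replicates 2 and 3. The difference was 0.22 (95% interval -0.05 to 0.48; limma adjusted p = 0.419).

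After cyclic loess all 6 later genes had positive differences, with values of 0.13 for Ltf, 0.41 for Camp, 0.05 for Ngp, 0.31 for S100a8, 0.45 for S100a9 and 0.37 for Retnlg. Camp, S100a8, S100a9 and Retnlg then had an unadjusted p under 0.05, where 5.49% of all features passed it as higher in the same fit. The lowest adjusted p of the 10 genes was 0.364 (limma), and 0.0085% of features were called. Centring each array on its median moved the other way, to 0.13 for Camp, 0.19 for S100a8, 0.26 for S100a9 and 0.13 for Retnlg. Without control replicate 1 Retnlg differed by 0.14 and S100a8 by 0.17, and Camp differed by 0.12 both without control replicate 3 and without knockout replicate 2. Without control replicate 4 these values were 0.32 for Camp, 0.37 for S100a8, 0.44 for S100a9 and 0.30 for Retnlg. As deposited, the late genes differed from the decile's median by 0.48 (S100a8), 0.55 (S100a9) and 0.42 (Retnlg).

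**Figure D2:**
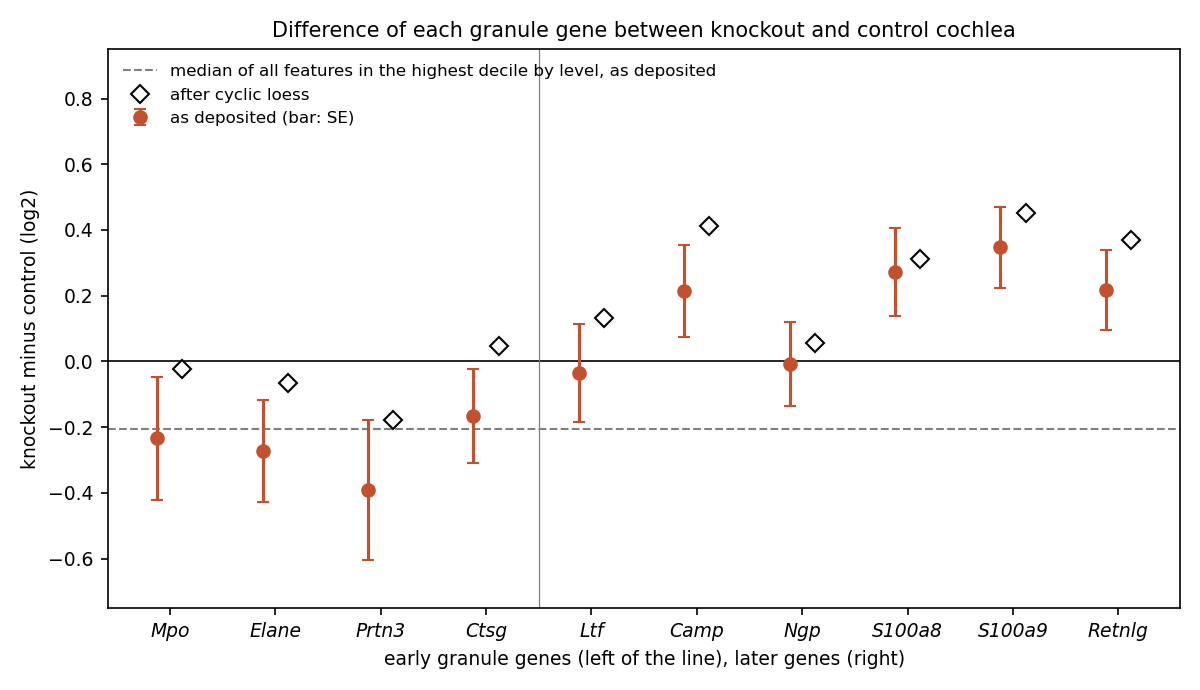
Knockout minus control difference of each granule gene in log2 units, as deposited (circle with SE) and after cyclic loess (diamond), with the median of all features in the highest decile by level as a dashed line. The values as deposited go from -0.39 for Prtn3 to 0.35 for S100a9, and none was called.

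The balance of early and later genes was described in each animal. Each gene was centred on its mean over the 8 arrays and averaged within its set. The early mean was -0.04, -0.01, -0.21 and -0.27 in knockout and 0.26, 0.12, -0.38 and 0.53 in control replicates 1 to 4. The later mean was -0.05, 0.23, 0.10 and 0.06 in knockout and -0.24, -0.10, -0.21 and 0.21 in control replicates 1 to 4. Control replicate 4 was thus high and control replicate 3 low in both sets.

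Early minus later takes out only what moves both sets by the same amount in an animal. In control replicates 3 and 4 the early set moved further than the later set, so part of a shared shift can remain. It was 0.01, -0.23, -0.31 and -0.34 in knockout and 0.50, 0.22, -0.17 and 0.31 in control replicates 1 to 4. 3 control animals lay above all knockout animals, and control replicate 3 lay below knockout replicate 1. Knockouts averaged -0.22 ± 0.16 and controls 0.22 ± 0.29 (SD, n = 4 each), a difference of -0.43. No test was made, since the sets were chosen with these values known. The difference was -0.34 after cyclic loess, -0.58 without control replicates 3 and 4, and -0.17 with signal range as a covariate.

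**Figure D3:**
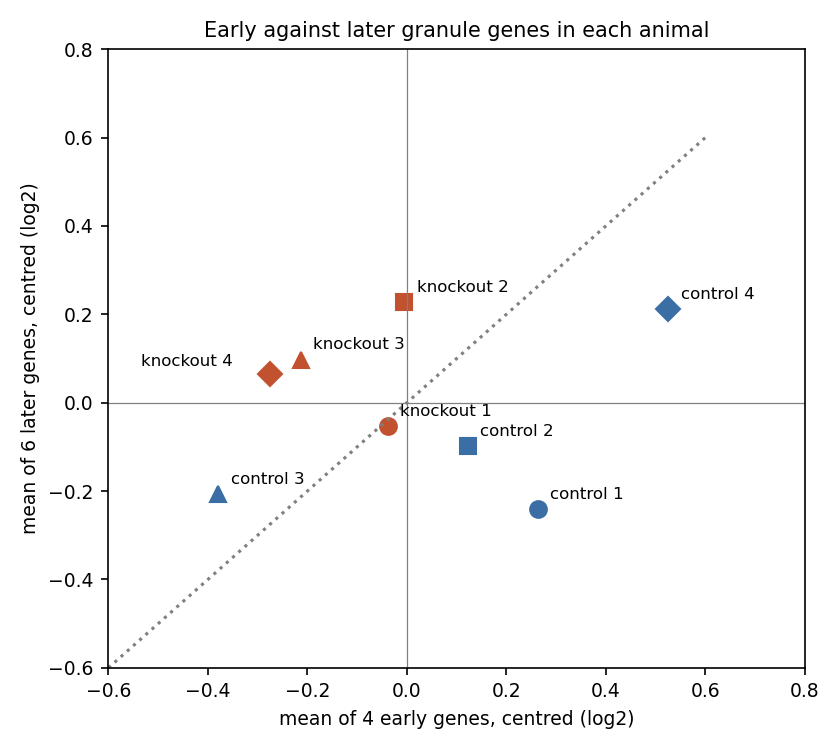
Mean centred level of the 4 early genes (x axis, log2) against that of the 6 later genes (y axis, log2), 1 point per animal, with controls in blue, knockouts in red and a dotted line where both are equal. 3 controls lie below the line, and knockout replicates 2, 3 and 4 and control replicate 3 lie above it.

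Across animals the late genes varied together, while early and specific granule genes could not be parted from each other in the values as deposited. Likeness was measured as Pearson's r over the 8 arrays, as a description with no test. S100a8, S100a9 and Retnlg were most alike, with r from 0.921 to 0.945 in 3 pairs. Ltf, Camp and Ngp followed with 0.808 to 0.921 in 3 pairs, and the early genes had 0.632 to 0.907 in 6 pairs. Early genes and the specific granule genes had a median r of 0.618 (0.185 to 0.814 in 12 pairs), which overlaps the range within each of those sets. Ctsg, for one, was more like Ltf (0.8) than any early gene (0.781 at most). Early and late genes had a median of -0.241 (-0.476 to 0.18 in 12 pairs). Specific granule and late genes, which together form the later set, had a median of 0.319 (0.199 to 0.625 in 9 pairs).

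The values moved under other settings. After cyclic loess the late genes had r of 0.929 to 0.957 and the specific granule genes 0.636 to 0.873. The early genes spread to 0.132 to 0.779, and early with specific granule genes had -0.246 to 0.677. With each group centred on its own mean, early and specific granule genes had r of 0.453 to 0.928, against 0.555 to 0.901 among the early genes. So centred, the early and late genes had r of -0.275 to 0.674, so the negative values over all arrays include the difference between the groups. Without control replicates 3 and 4 they were -0.99 to -0.183 over 6 arrays, and the early genes read 0.129 to 0.793. Early and specific granule genes then had r of -0.647 to 0.537. All genes of an array share its hybridisation and signal range.

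**Figure D4:**
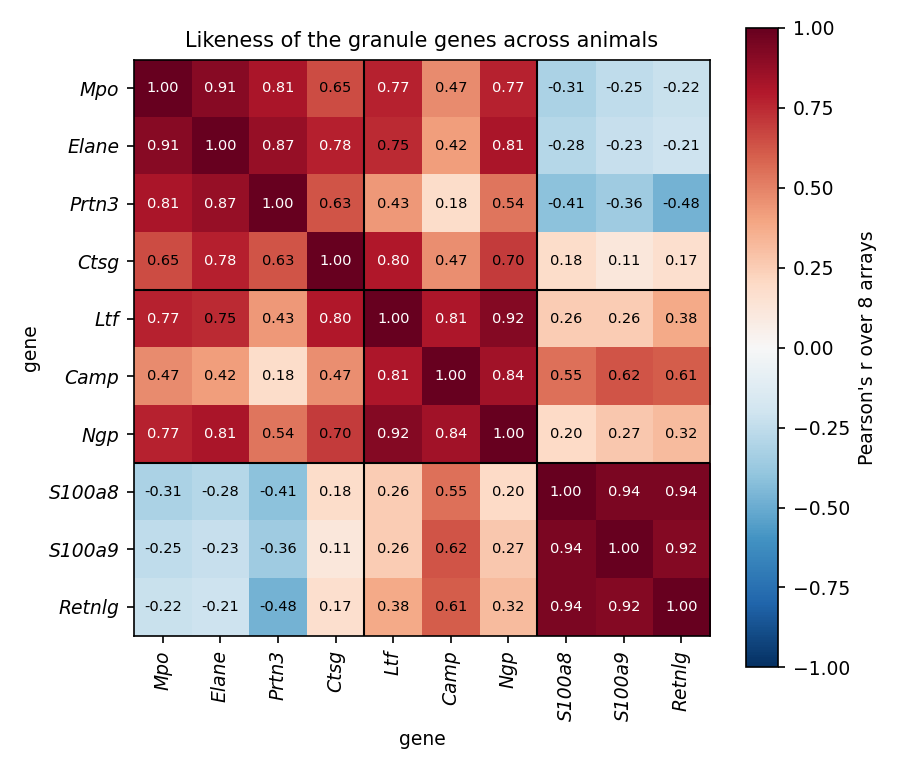
Pearson's r between the granule genes over the 8 arrays, genes on both axes, with lines drawn by the genes' stages (early, specific granule and late). The late genes at the lower right have r of 0.921 to 0.945 with each other and -0.476 to 0.18 with the early genes.

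Other genes of the lineage were counted from lists written with earlier results of these arrays known. In 22 measured genes of mature neutrophils, 0 were called, and 21 had positive differences with a median of 0.18. At an unadjusted p under 0.05 there were 5, all higher, beside the 7.04% of all features. Lists of other cells held counts of this kind in the lower direction, beside 7.25% of all features: 7 of 11 B lineage, 7 of 17 cell cycle, 6 of 15 skeletal muscle and 4 of 12 cochlear structure genes. The 5 mature neutrophil genes were Stfa1 at 0.60, Stfa2 at 0.47, Ccl6 at 0.35, Slpi at 0.25 and Stfa3 at 0.61 (limma adjusted p = 0.301 to 0.341). Stfa1 encodes a stefin, an inhibitor of cysteine proteases. It read 10.05, 9.99, 9.49 and 10.01 in knockout and 9.03, 8.99, 9.18 and 9.94 in control replicates 1 to 4. Only control replicate 4 among the controls reached the knockout range. The stefin A genes are near-identical copies whose probes may share transcripts, so they are uncertain as separate genes. Ccl6 is a chemokine and Slpi an inhibitor of elastase and cathepsin G. The count of positive differences in the list was 22 after cyclic loess, 22 without control replicate 4, 17 without control replicate 3 and 16 after median centring.

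As deposited, the lists of earlier stages were more evenly divided in sign. In 20 measured genes of specific and gelatinase granules 0 were called and 10 were positive, with a median of -0.01. Those with the lowest p were Ltb4r1 at 0.16, the collagenase gene Mmp8 at 0.16, Arg1 at 0.11 and Itgb2l at 0.14. In 11 measured other genes of early granules and promyelocytes 0 were called and 6 were positive, with a median of 0.01. Those with the lowest p were Clec11a at -0.28, Prss57 at 0.23, Rgcc at -0.13 and Igfbp4 at -0.11. Prss57, itself a serine protease of azurophil granules, thus had a difference of the opposite sign to the 4 early genes. After cyclic loess 18 of 20 and 10 of 11 of these genes were positive, with medians of 0.17 and 0.15. All 22 mature neutrophil genes were then positive too, beside 48.9% of all tested features.

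Regulators of granulocyte development were measured by 16 genes, of which 0 were called and 5 were positive, with a median of -0.05. Those with the lowest p were Irf8 at -0.25, which favours monocytes over granulocytes, Myb at -0.31, a factor of immature blood cells, Runx1 at -0.20 and the marrow retention receptor gene Cxcr4 at -0.18 (limma adjusted p = 0.333 to 0.545). A second, dimmer feature read 0.31 for Irf8 and 0.18 for Myb, so the features of these 2 genes disagree in sign.

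Genes of other blood and tissue cells were set beside the granule genes. In the cell cycle list, 16 of 17 measured genes were lower, with a median of -0.30, and its mean level was 6.93 to 7.41 in knockout and 7.16 to 7.73 in control animals. The lowest unadjusted p were those of Cenpe at -0.41 and Mcm2 at -0.33. The erythroid list had 8 of 8 lower (median -0.25) and read 7.06 to 7.48 in knockout and 7.13 to 7.93 in control animals, with Slc4a1 at -0.41 and Rhag at -0.45. Control replicate 4 was the highest array for both lists (0.45 and 0.54, centred) and for the early granule genes (0.53), and it was so for 9 of the 17 lists beside the 10 genes. The B lineage list had 10 of 11 lower (median -0.35), and read 6.92 to 7.22 in knockout and 7.15 to 7.52 in control animals. Cd79b was at -0.44 and Pax5 at -0.52. After cyclic loess the medians were -0.10 for cell cycle, -0.05 for erythroid and -0.23 for B lineage genes. Positive differences were then found in 1 of 17, 3 of 8 and 1 of 11 of these genes. Their part in the granule gene values was not tested.

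Cells that share products with neutrophils were counted too. Monocytes and macrophages read 6.53 to 6.64 in knockout and 6.52 to 6.71 in control animals, with 5 of 15 genes higher and Cx3cr1 at 0.34 and Cd163 at 0.22. Mast cells, which also make cathepsin G, read 4.22 to 4.41 and 4.26 to 4.35, with 4 of 8 genes higher, Fcer1a at 0.19 and Tpsab1 at 0.15. Blood progenitors read 5.46 to 5.58 and 5.51 to 5.72, with 2 of 8 genes higher, Angpt1 at -0.24 and Cd34 at -0.12. Megakaryocytes read 7.14 to 7.31 and 7.24 to 7.62, with 1 of 7 higher, Gp9 at -0.22 and Ppbp at -0.22. T and natural killer cells read 4.66 to 4.88 and 4.57 to 4.81, with 8 of 10 higher, Cd8a at -0.23 and Cd3g at 0.25. All of that list but Prf1 lay in deciles 2 to 4 by level, where 70.0% to 78.7% of all features were positive as deposited. After cyclic loess 4 of these 10 genes were positive. Osteoclasts, which share Mmp9 with neutrophils, read 7.22 to 7.59 and 7.36 to 7.68, with 1 of 8 higher, Oscar at -0.34 and Atp6v0d2 at -0.34. These counts are as deposited. After cyclic loess 10 of 15 monocyte and macrophage, 3 of 8 mast cell and 2 of 8 progenitor genes were positive. So were 3 of 7 megakaryocyte and 3 of 8 osteoclast genes, beside 48.9% of all tested features. None of these genes was called, and their part in the granule gene values was not tested.

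Genes of muscle and of the cochlea itself were also read. The skeletal muscle list read 5.56 to 6.56 in knockout and 6.37 to 8.04 in control animals, with 13 of 15 genes lower, Actn3 at -0.90 and Pvalb at -0.96. Its highest array was control replicate 2 and its lowest knockout replicate 1. The hair cell list read 5.42 to 5.57 and 5.54 to 5.70, with 1 of 14 called (Calb2, -1.60) and Myo6 at -0.53. The cochlear structure list read 6.55 to 6.92 and 6.84 to 7.0, with 10 of 12 lower, Coch at -0.35 and Gjb6 at -0.35. After cyclic loess 2 of 15 skeletal muscle and 4 of 12 cochlear structure genes were positive. Their part in the granule gene values was not tested.

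**Figure D5:**
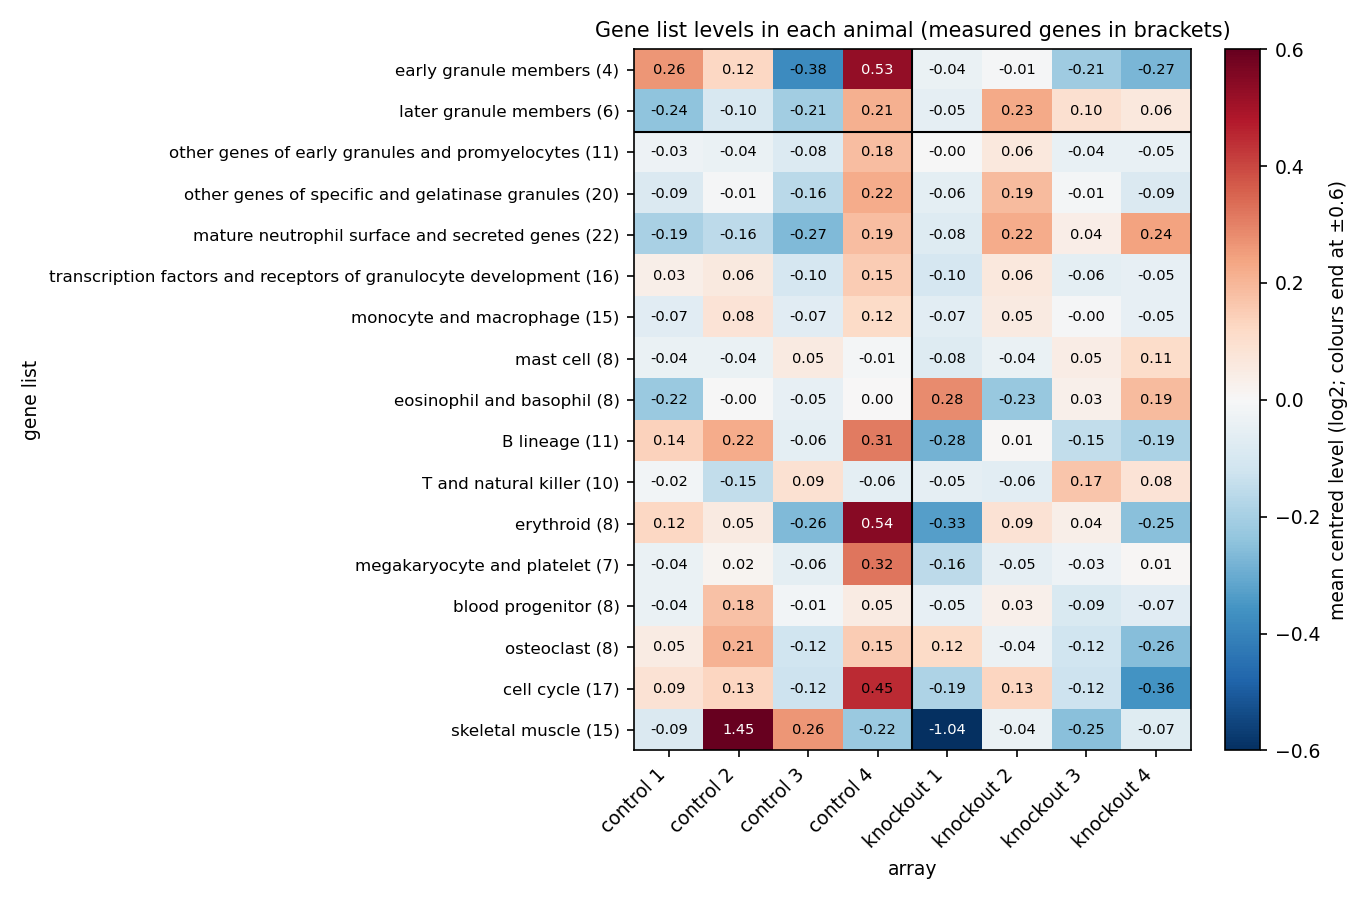
Mean centred log2 level of each blood, bone and muscle gene list (rows, with the number of measured genes) in each array (columns), red above and blue below the list's mean over the arrays. Control replicate 4 is the highest array for the early granule genes (0.53), the erythroid list (0.54) and the cell cycle list (0.45), and mature neutrophil genes are highest in knockout replicate 4 (0.24).

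The genes most like each set were found among 14515 genes with a mean level of at least 5. For the early set they were Cdk4 (r = 0.984), St6gal1 (0.981), Dazap2 (0.979), Fkbp8 (0.979) and Ifi30 (0.978), over 8 arrays, and 269 genes had r over 0.9. After cyclic loess these 5 read 0.899 for Cdk4, 0.956 for St6gal1, 0.465 for Dazap2, -0.114 for Fkbp8 and 0.949 for Ifi30. For the later set they were the zinc transporter gene Slc39a8 (0.955), the liver-type glycogen phosphorylase gene Pygl (0.954), the integrin gene Itgal (0.951), Mmp8 (0.944) and Myct1 (0.926), and 11 genes had r over 0.9. After cyclic loess these 5 read 0.937, 0.964, 0.925, 0.969 and 0.78. Their differences between the groups were -0.31 to -0.11 for the early set's 5 and 0.09 to 0.26 for the later set's 5, and none was called.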

How the data were processed

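The authors deposited log2 expression values per gene-level feature. They were made by RMA, with Expression Console as the software, per the submitters' processing notes. RMA corrects background, quantile-normalizes and summarizes the probes of a feature. Version, annotation release and build are not given in the sources used. There was no detection call, so background level is unknown, and precision is limited by having 4 arrays a group. Of 41345 features, 23521 had exactly 1 symbol, 1814 several and 16010 none. Where a gene had several, the feature with the highest mean stood for it.

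The groups were compared on all 23521 features with limma 3.58.1 under R 4.3.3 (lmFit, then eBayes with a trend on mean level). The code was tested on simulated data. The members, gene lists and tests were chosen with earlier results of these data known. Genes named are the members, the 4 genes of each neutrophil list (5 with a tie) and the 2 of each other list with the smallest p, and the 5 most like each set. Alternatives were other normalizations, filters, variance settings, array weights, a replicate block, signal range as a covariate and each array left out.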

Additional observations from a re-analysis of the deposited data

Results flagged for a closer look

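Retnlg in knockout replicate 1 stood apart from its group. It read 9.37, while the other 3 knockout animals read 9.63 to 9.67, so the gap took up 0.843 of the group's range, above the 95% critical value of Dixon's test for 4 samples. Of 26 groups of 4 values examined this was the only one, and chance gives such a gap in about 1 in 20 groups. The same animal was also the lowest knockout for S100a8 (11.24) and S100a9 (10.23).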

How the results depend on the processing

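The count of 0 called granule genes held in all 20 alternatives. The count of called features, 3 as deposited, was 8 with array weights, 1 over all features of the table, 1 with signal range as a covariate, 1 without control replicates 3 and 4, and 1 to 21 when 1 array was left out (21 without control replicate 3, 1 without control replicate 1). With the replicate number as a block it was 3. Deviations of same-numbered animals correlated little and not in 1 direction (0.08, 0.13, 0.14 and -0.23), and 3 of 8 arrays correlated best with their own number. The numbers were not taken as pairs, and whether they mark pairs is not known. The early minus later difference, -0.43, was -0.17 with signal range as a covariate and -0.56 to -0.34 when 1 array was left out. Differences changed sign with signal range as a covariate for Mpo (0.35), Elane (0.21), Prtn3 (0.21), Ctsg (0.17), Ltf (0.38) and Ngp (0.32), after cyclic loess for Ctsg (0.046), Ltf (0.13) and Ngp (0.055), after repeated quantile normalization for Ltf (0.053) and Ngp (0.026), and without control replicates 3 and 4 for Ltf (0.050). With 1 array left out Ltf ranged from -0.14 to 0.10 and Ngp from -0.097 to 0.071. The causes were not tested. Camp, S100a8, S100a9 and Retnlg stayed positive in all 20 alternatives. In part of these the sign could not change. The replicate block, the variance settings, the choice of features tested and the averaging of a gene's features leave each difference as it was. These genes were also chosen with their differences known. Of the 5 genes most like each set, 2 remained among the first 5 after cyclic loess and 1 with group-centred values. Chosen after seeing the data were the removal of control replicates 3 and 4, the covariate for the early minus later value and the counts of positive differences.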

Other observations

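Genes of eosinophils, the other granulocyte with abundant granule proteins, were measured beside those of neutrophils. Prg2 encodes the major basic protein of the eosinophil granule. It read 10.14, 9.28, 9.84 and 9.90 in knockout and 8.98, 9.27, 9.52 and 9.04 in control replicates 1 to 4. In 3 of 4 knockout animals it lay above all controls, and knockout replicate 2 lay within the control range. The difference was 0.59 (SE 0.17; 95% interval 0.22 to 0.96; limma adjusted p = 0.296), and 0.74 after cyclic loess. A fit that included each array's signal range gave 0.205 (limma adjusted p = 0.963). Mcpt8, a protease of basophils, differed by -0.33 (limma adjusted p = 0.327). The list of both cell types read 6.11 to 6.62 in knockout and 6.12 to 6.34 in control animals. Of its 8 measured genes 5 were higher (6 after cyclic loess) and 0 were called. Its order of animals differed in part from that of the later neutrophil genes. Knockout replicate 2 was the lowest of the 8 arrays for it (-0.23, centred) and the highest for them (0.23). Control replicate 1 was low for both (-0.22 for the list and -0.24, the lowest, for the later genes).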
